A study of Mus musculus with 12 samples.

Results

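A set of 31 genes known from mature or developing cerebellar granule cells was followed in bulk RNA-Seq of mouse brain, out of 55536 genes counted. They were chosen by name, as genes that mark these neurons or act in their development, and all 31 were found in the files. The tissue came from 1-month-old mice, and 4 groups of 3 libraries each were sequenced, namely WT cerebella, *Snx14*-KO cerebella, WT cerebral cortices and *Snx14*-KO cerebral cortices. The *Snx14*-KO mice are homozygous for a deletion of 1 base of *Snx14* made with Cas9 on C57BL/6J and then backcrossed, and they carry that same deletion in every cell. No transgene or Cre was used and no cells were sorted, so each library holds the RNA of all cells of the dissected tissue. The labels give no sex for a mouse. The same WT cerebella enter the genotype comparison and the tissue comparison below, so these are not independent of each other.

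Granule cells are the most numerous neurons of the cerebellum. They are small glutamatergic cells that receive mossy fiber input on short dendrites and send parallel fibers to the dendrites of Purkinje cells, and they carry GABA-A receptors with an alpha6 subunit that few other neurons make. They are born after birth from *Atoh1*-positive progenitors in the external granular layer, which divide in response to Sonic hedgehog from Purkinje cells, and then migrate inward and mature. SNX14 is a sorting nexin of the endoplasmic reticulum that takes part in lipid handling, and its loss causes a childhood cerebellar ataxia in humans.

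Each library held 16672589 to 19887427 counts on genes. *Snx14* itself checks the labels. It was at 65.9 to 70.6 CPM (counts per 1000000 counts of the library after TMM normalization, a scaling for library size and composition) in WT cerebella and at 10.8 to 11.9 in the cerebella of *Snx14*-KO mice, which is -2.57 as a log2 fold change (adjusted p = 1.69e-06 by edgeR's quasi-likelihood test), and in cortex its log2 fold change was -2.80 (adjusted p = 3.19e-08 by the same test). The tissue labels were checked against defining genes, of which *Gabra6* was at 548 to 688 CPM in WT cerebella and at 0.169 to 2.01 in WT cortices. *Snx14*-KO cerebella 1 and 3 stood apart from the other cerebella. *Nrgn*, which marks forebrain excitatory neurons, was at 127 and 124 CPM in these libraries, against 2.09 to 6.37 in WT cerebella and 9.65 in *Snx14*-KO cerebellum 2. With all 12 libraries scaled together, these levels were 7.44% and 7.15% of the mean of the WT cortices, and 0.560% in *Snx14*-KO cerebellum 2. The interneuron gene *Sst* was at 35.8 and 38.0 CPM in *Snx14*-KO cerebella 1 and 3, at 3.37 in *Snx14*-KO cerebellum 2 and at 2.29 to 2.83 in WT cerebella. Across the lists for these cell types below, 4 of 6 forebrain genes tested and 2 of 10 interneuron and Golgi cell genes were higher in *Snx14*-KO cerebella. The median log2 fold changes of these lists were 0.11 and -0.03. For the 29 genes tested, the log2 fold changes of *Snx14*-KO against WT cerebella are therefore given with all libraries and also with *Snx14*-KO cerebellum 2 as the lone *Snx14*-KO library and without it. The fit with *Snx14*-KO cerebellum 2 alone was added after the data were seen.

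WT cerebella showed what these genes mark at 1 month. Of the 31 genes, 29 had enough counts to be tested between WT cerebella and WT cortices. By edgeR's quasi-likelihood test, 21 were higher in cerebellum (adjusted p below 0.05, log2 fold change beyond 0.50 either way, as for every call between 2 groups here), and 5 were lower. Of all 18543 genes tested, 19.0% were called higher and 21.4% lower. A gene with next to no counts in cortex passed the filter on low counts through its cerebellar libraries and had to differ, so the count of 21 is a description of the list.

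Per kilobase of gene model, *Snap25*, a SNARE protein that all neurons use for vesicle release, had the highest level of the list in WT cerebella (266 CPM per kb ± 11.0, SD, n = 3). *Gabra6* followed at 248 ± 28.1 (SD, n = 3), and its libraries overlapped those of *Snap25*. The synapse organizer *Cbln1* was at 201 ± 14.0 CPM per kb and its partner *Cbln3* at 175 ± 17.9 (SD, n = 3 each), and the libraries of this pair overlapped. The calcium buffer *Calb2* was at 159 CPM per kb, the zinc finger factor *Zic1* at 122 and the bHLH factor *Neurod1* at 98.6. *Pax6* (5.35 CPM per kb), *Barhl1* (2.24), *Mycn* (1.57) and *Dcx* (0.524) were the lowest of the genes tested, and each of them lay below the gene before it without overlap of the WT libraries.

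The tissue contrast was widest for 3 genes of mature granule cells. *Gabra6* was higher in WT cerebella by a log2 fold change of 9.39 (standard error 0.351), *Cbln3* by 8.93 (standard error 0.330) and *Fat2* by 8.63 (standard error 0.211). *Zic1* followed with 6.23, *Cbln1* with 5.53, *Barhl1* with 5.34, *Zic4* with 5.21 and *Il16* with 4.996. The value of *Barhl1* rested on WT cortex 1, which held 11 of its counts where WT cortices 2 and 3 held 1 and 0, and without that library it was 8.31. *Gabra6*, *Cbln3* and *Fat2* also moved most with that library, to 10.74, 9.78 and 9.30 without it. The log2 fold changes were smaller for genes that cortical neurons also express, with 0.79 for *Gabrd*, 1.01 for *Tiam1*, 1.11 for *Reln* and 1.40 for *Etv1*. *Neurod2* (0.30), *Nfix* (-0.08) and *Rims3* (-0.39) were not called. Without WT cortex 2, *Rims3* was called lower in cerebellum with a log2 fold change of -0.50. The genes called lower in cerebellum were the vesicular glutamate transporter *Slc17a7* (-2.10), the vesicle protein *Svop* (-1.20), *Snap25* (-0.74), *Mycn* (-0.78) and *Dcx* (-2.43). Scaling by total counts alone moved the median of all genes in this comparison from 0.02 to 0.15, and the median of the 29 genes from 2.96 to 3.08. It also turned *Nfix* to 0.05.

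**Figure D1:**
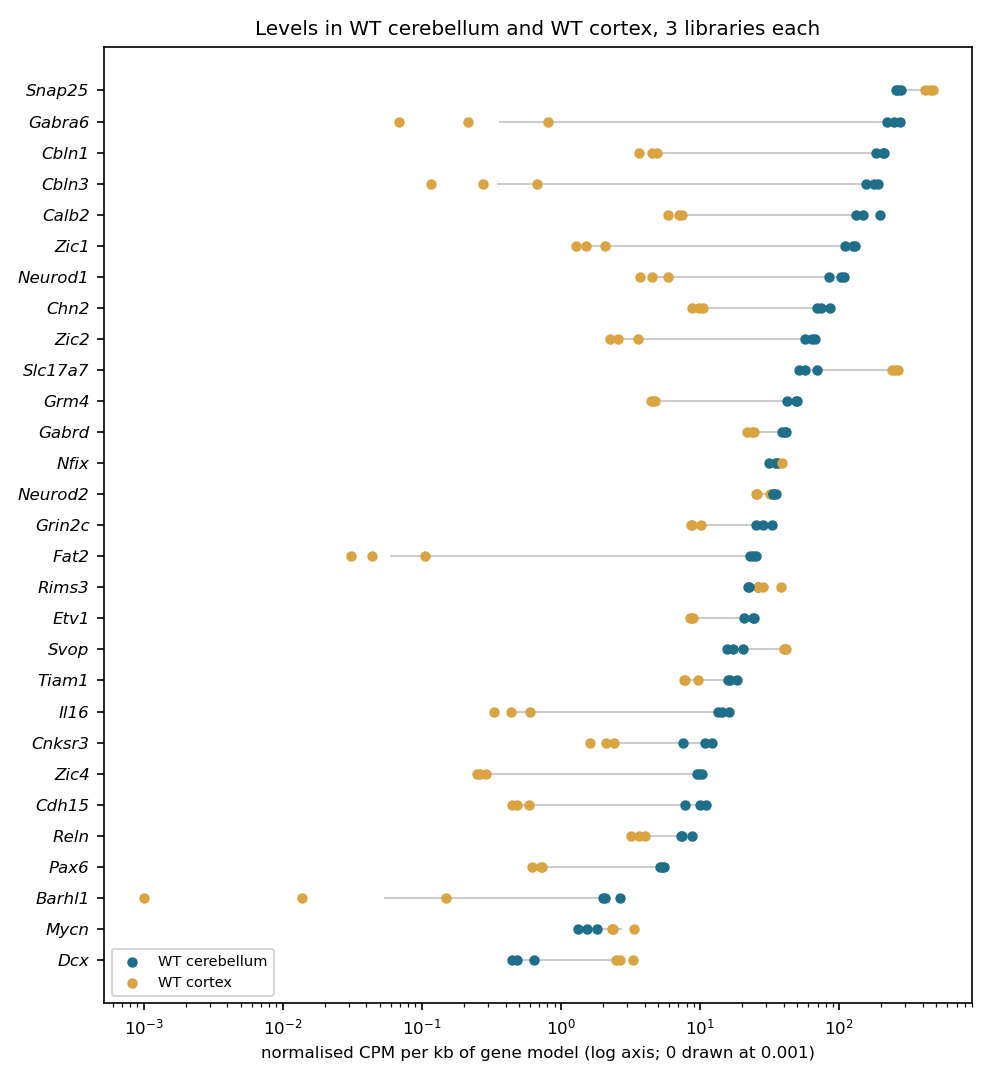
Normalised CPM per kb of gene model (log axis) of the 29 tested granule cell genes in the 3 WT cerebella and the 3 WT cortices, 1 point per library, with a grey line between the group means and genes ordered by cerebellar level. *Gabra6*, *Cbln3* and *Fat2* lie furthest apart, while *Snap25*, *Slc17a7*, *Svop*, *Mycn* and *Dcx* are higher in cortex.

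Of the 31 genes, 2 had too few counts to be tested in cerebellum. *Atoh1*, the factor that defines granule cell progenitors, had 0 counts in all 12 libraries. *Nhlh1*, a bHLH factor of newly postmitotic neurons, had 1 to 4 counts in WT and 0 to 4 in *Snx14*-KO cerebella. In WT cortices *Nhlh1* had 8 to 20 counts. A count of 0 allows up to 3 counts per library, or 0.151 to 0.180 CPM, for counting error only.

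The knockout effect in cerebellum is the main comparison. Of the 29 genes tested, 26 had a log2 fold change below 0 in *Snx14*-KO against WT cerebella, with a median of -0.26 over the 29, where the median of all genes was -0.00062 and 50.1% of the 18201 genes tested were below 0. None of the 29 (0) was called by edgeR's quasi-likelihood test, by which *Snx14* alone, or 0.00549% of all genes, was called. At an unadjusted p under 0.05, 14 of the 29 were lower and 0 higher, where 2.37% of all genes were lower and 5.78% higher. For 10 of the 29, the 3 *Snx14*-KO cerebella lay below the 3 WT cerebella, as for 5.25% of all genes. DESeq2 called 2 of them lower, *Fat2* and *Cdh15*, against 0.0604% of all genes. In bulk tissue, fewer granule cells, less RNA per granule cell and a larger share of RNA from other cells cannot be told apart.

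The lower levels were not even across the *Snx14*-KO cerebella. *Snx14*-KO cerebellum 1 lay below the 3 WT cerebella for 23 of the 29 genes and *Snx14*-KO cerebellum 3 for 21, while *Snx14*-KO cerebellum 2 did so for 10. With *Snx14*-KO cerebellum 2 as the lone *Snx14*-KO library, whose spread was then taken from the WT libraries, the median of the 29 was -0.06, 21 were below 0 and 2 were lower at an unadjusted p under 0.05, *Fat2* and *Cdh15*, against 1.30% of all genes. Without that library, the median was -0.38, 25 were below 0 and 21 were lower at an unadjusted p under 0.05, against 3.51% of all genes, while *Barhl1* was the 1 gene higher at that level. *Fat2*, *Il16* and *Neurod2* were then called lower, and 0.0536% of all genes were. Without *Snx14*-KO cerebellum 1 the median was -0.15, with 7 genes lower at an unadjusted p under 0.05. The share of all genes at that level was not counted for that fit. *Snx14*-KO cerebella 1 and 3 are the libraries in which *Nrgn* and *Sst* were high, and the part of those other cells in these results was not tested.

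**Figure D2:**
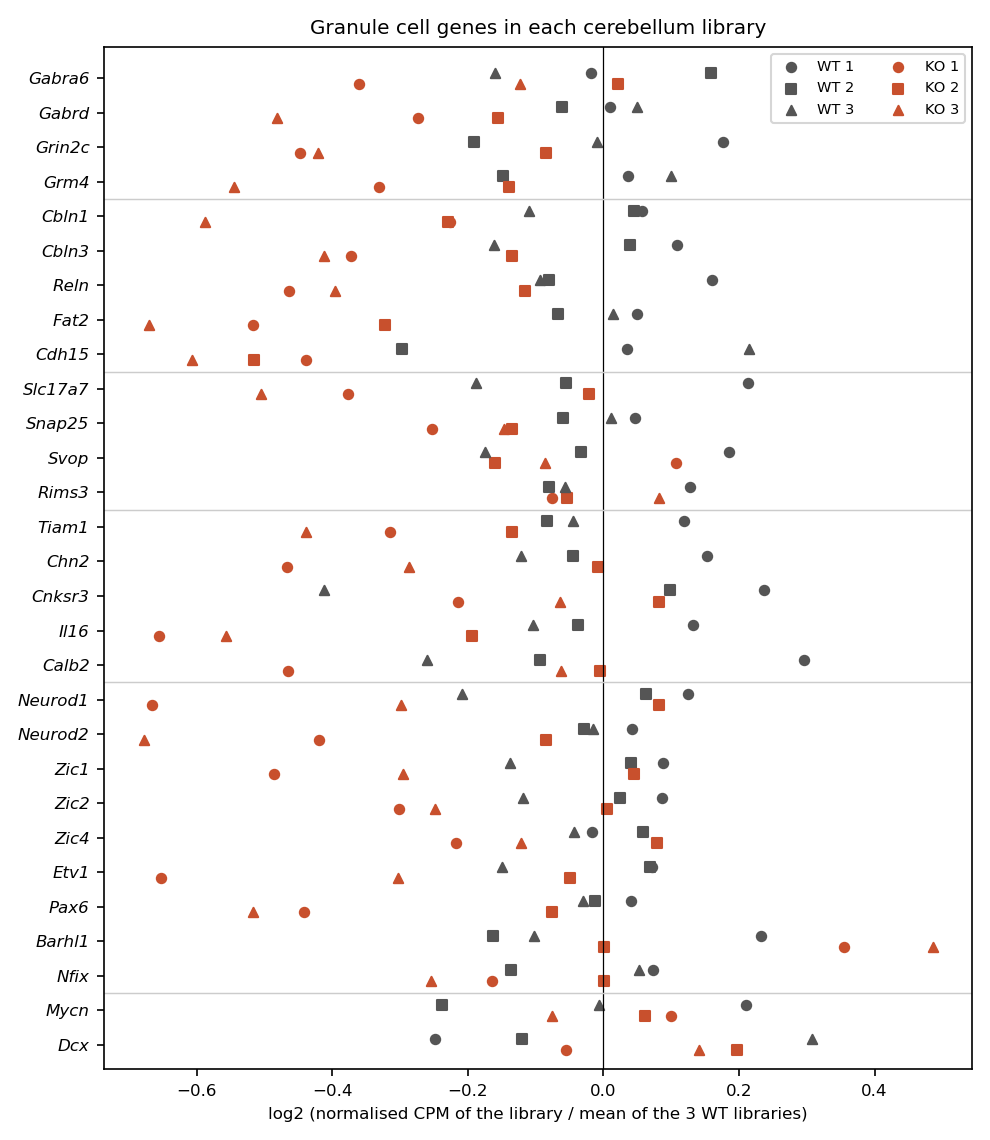
Each of the 29 tested genes in each cerebellum library, as the log2 of its normalised CPM over the mean of the 3 WT cerebella. Rows are genes by role, grey symbols are WT and orange symbols *Snx14*-KO cerebella, and circles, squares and triangles are mice 1, 2 and 3 of each genotype. *Snx14*-KO cerebella 1 and 3 lie left of the WT libraries for most genes, while *Snx14*-KO cerebellum 2 lies near them except for *Fat2*, *Cdh15* and a few others.

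The secreted and adhesion proteins had the lowest median of the roles, -0.34, and 5 of 5 were lower at an unadjusted p under 0.05. The median was -0.23 with *Snx14*-KO cerebellum 2 alone, and without it -0.44. *Fat2* (ENSMUSG00000055333.14, minus strand of chromosome 11 from 55250609 to 55336564) encodes an atypical cadherin of parallel fibers. It was at 378, 349 and 369 CPM in WT cerebella and at 256, 293 and 230 in *Snx14*-KO cerebella 1, 2 and 3. All 3 *Snx14*-KO values were below the WT values, and the highest of them was that of *Snx14*-KO cerebellum 2. The log2 fold change was -0.50 (standard error 0.0913, 95% interval -0.70 to -0.29), and the adjusted p was 0.145 by the quasi-likelihood test and 4.28e-05 by DESeq2. It was -0.33 with *Snx14*-KO cerebellum 2 alone and -0.60 without it. *Cdh15* (ENSMUSG00000031962.6, plus strand of chromosome 8 from 122847966 to 122867397) encodes M-cadherin, found at the contacts of granule cell dendrites with mossy fibers. Its WT cerebella were at 33.6, 26.7 and 38.1 CPM and its *Snx14*-KO cerebella at 24.2, 23.0 and 21.6. The *Snx14*-KO cerebella lay close together here, below the lowest WT library. The log2 fold change was -0.52 (standard error 0.130, 95% interval -0.81 to -0.22), and the adjusted p was 0.275 by the quasi-likelihood test and 0.0323 by DESeq2. It was -0.52 with *Snx14*-KO cerebellum 2 alone and -0.53 without it.

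The cerebellins are secreted by parallel fibers, and CBLN1 bridges presynaptic neurexin and the GluD2 receptor of Purkinje cells. *Cbln1* was at 665, 659 and 592 CPM in WT and at 546, 545 and 425 in *Snx14*-KO cerebella, without overlap. It differed by -0.34 (standard error 0.105) on the log2 scale. The adjusted p was 0.396 by the quasi-likelihood test and 0.0468 by DESeq2, where the fold did not reach the threshold. *Cbln3* was at 961, 915 and 797 CPM in WT and at 688, 812 and 669 in *Snx14*-KO cerebella, so that *Snx14*-KO cerebellum 2 lay among the WT libraries. Its log2 fold change was -0.30 (standard error 0.100). *Reln*, the secreted glycoprotein that positions Purkinje cells, was at 217, 184 and 182 CPM in WT and at 141, 180 and 148 in *Snx14*-KO cerebella, without overlap but with 180 close to 182. The log2 fold change of *Reln* was -0.32 (standard error 0.107). *Cbln1*, *Cbln3* and *Reln* had log2 fold changes of -0.23, -0.14 and -0.12 with *Snx14*-KO cerebellum 2 alone, and without it of -0.40, -0.40 and -0.44.

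The transmitter receptors had a median of -0.30, and 3 of 4 were lower at an unadjusted p under 0.05. The median was -0.12 with *Snx14*-KO cerebellum 2 alone, where 0 of 4 were lower at that level, and -0.41 without it. *Gabra6*, the alpha6 subunit of GABA-A receptors, was at 638, 722 and 578 CPM in WT and at 503, 656 and 593 in *Snx14*-KO cerebella. These groups overlapped, and the log2 fold change was -0.15 (standard error 0.113). With *Snx14*-KO cerebellum 2 alone it was 0.02, and without that library -0.24. *Gabrd* (ENSMUSG00000029054.8, minus strand of chromosome 4 from 155384980 to 155398112), the delta subunit that joins alpha6 outside synapses, was at 122, 116 and 126 CPM in WT and at 100.4, 109 and 87.0 in *Snx14*-KO cerebella. The groups did not overlap, and the log2 fold change was -0.30 (standard error 0.0885, adjusted p = 0.381 by the quasi-likelihood test). *Grin2c*, the NMDA receptor subunit of mature granule cells, was at 172, 133 and 151 CPM in WT and at 111, 143 and 113 in *Snx14*-KO cerebella, where *Snx14*-KO cerebellum 2 lay within the WT range. Its log2 fold change was -0.31 (standard error 0.120). *Grm4*, the presynaptic glutamate receptor of parallel fibers, was at 303, 266 and 316 CPM in WT and at 235, 268 and 202 in *Snx14*-KO cerebella, again with *Snx14*-KO cerebellum 2 within the WT range. The log2 fold change of *Grm4* was -0.33 (standard error 0.108). *Gabrd*, *Grin2c* and *Grm4* were at -0.16, -0.09 and -0.14 with *Snx14*-KO cerebellum 2 alone, and without it at -0.38, -0.44 and -0.44.

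The vesicle and release proteins had a median of -0.11, which was -0.10 both with *Snx14*-KO cerebellum 2 alone and without it, but -0.05 without WT cerebellum 1 and -0.16 without WT cerebellum 3. *Slc17a7*, which loads glutamate into parallel fiber vesicles, was at 386, 320 and 292 CPM in WT and at 256, 328 and 235 in *Snx14*-KO cerebella. The groups overlapped through *Snx14*-KO cerebellum 2, and the log2 fold change was -0.29 (standard error 0.137). *Snap25* was at 1954, 1816 and 1906 CPM in WT and at 1589, 1724 and 1710 in *Snx14*-KO cerebella, without overlap, with a log2 fold change of -0.18 (standard error 0.0732). *Svop* and *Rims3*, a vesicle protein and an active zone protein, did not differ beyond the spread of the libraries. *Svop* was at 96.5, 83.0 and 75.2 CPM in WT and at 91.5, 76.0 and 80.0 in *Snx14*-KO cerebella (log2 fold change -0.04). *Rims3* was at 215, 186 and 189 CPM in WT and at 187, 189 and 208 in *Snx14*-KO cerebella (log2 fold change -0.01). *Slc17a7*, *Snap25*, *Svop* and *Rims3* were at -0.03, -0.14, -0.16 and -0.06 with *Snx14*-KO cerebellum 2 alone, and without it at -0.45, -0.21, 0.01 and -0.0026.

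Of the signalling proteins, *Il16* differed most, and the median of the 5 genes was -0.24, or -0.01 with *Snx14*-KO cerebellum 2 alone and -0.38 without it. *Il16* (ENSMUSG00000001741.12, minus strand of chromosome 7 from 83642825 to 83745726) encodes a PDZ protein with a neuronal form and the precursor of a cytokine. It was at 133, 118 and 113 CPM in WT and at 76.8, 106 and 82.3 in *Snx14*-KO cerebella, without overlap. The log2 fold change was -0.46 (standard error 0.120, 95% interval -0.73 to -0.18), and the adjusted p was 0.321 by the quasi-likelihood test and 0.0163 by DESeq2. It was -0.20 with *Snx14*-KO cerebellum 2 alone and -0.61 without it. Of its 7865 exon bases, 17.4% are shared with *Stard5* and *2310044K18Rik*, and read pairs there were counted for each gene. *Tiam1*, an activator of Rac, was at 194, 169 and 173 CPM in WT and at 144, 163 and 132 in *Snx14*-KO cerebella, without overlap, with a log2 fold change of -0.29 (standard error 0.0921). *Chn2*, an inhibitor of Rac, was at 519, 453 and 429 CPM in WT and at 338, 464 and 383 in *Snx14*-KO cerebella, with overlap (-0.24), and 10.6% of its exon bases are shared with other genes. The other two genes varied among the WT libraries themselves. *Cnksr3* was at 48.3, 43.8 and 30.8 CPM in WT and at 35.3, 43.4 and 39.2 in *Snx14*-KO cerebella (-0.06). *Calb2*, which unipolar brush cells also express, was at 355, 271 and 242 CPM in WT and at 210, 288 and 277 in *Snx14*-KO cerebella (-0.16). *Tiam1*, *Chn2*, *Cnksr3* and *Calb2* were at -0.14, -0.01, 0.08 and -0.01 with *Snx14*-KO cerebellum 2 alone, and without it at -0.38, -0.38, -0.14 and -0.26.

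Sequences before a RefSeq start of *Fat2* and of *Il16* are shown. These genes were among the 4 with the smallest p in cerebellum that were also called higher there than in cortex. *Cdh15* and *Gabrd* were the others, and they are named only. Both windows are the 250 bases before a RefSeq start (GRCm38.p6), read 5′ to 3′ along the gene, in lower case with matches to the motifs below, on either strand, in capitals. The *Fat2* window is chr11:55312258-55312507, minus strand, and lies in an intron of 1 of the 2 annotated *Fat2* transcripts. The *Il16* window is chr7:83735540-83735789, minus strand, at the most upstream of 3 RefSeq starts, and lies in introns of 2 of 6 annotated *Il16* transcripts. Both windows lie inside the annotated gene, whose 5′ end is at 55336564 for *Fat2* and at 83745726 for *Il16*.
Fat2: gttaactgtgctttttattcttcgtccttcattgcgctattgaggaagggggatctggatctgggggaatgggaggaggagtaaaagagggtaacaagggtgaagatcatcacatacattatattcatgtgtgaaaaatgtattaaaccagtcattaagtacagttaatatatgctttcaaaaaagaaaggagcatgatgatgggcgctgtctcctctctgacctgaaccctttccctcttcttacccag
Il16: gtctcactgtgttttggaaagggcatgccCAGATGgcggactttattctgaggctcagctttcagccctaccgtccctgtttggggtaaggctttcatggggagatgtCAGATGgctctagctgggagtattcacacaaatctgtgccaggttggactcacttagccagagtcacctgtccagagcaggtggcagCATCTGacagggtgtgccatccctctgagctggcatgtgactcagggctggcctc

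Of the 31 genes, 24 were in the RefSeq promoter table, with 37 windows of 300 bases from 250 before to 50 after a start, which were searched on both strands. For 28 of the 37 windows, the 30 bases after the start were found in an annotated transcript of the gene. The E-box CAGATG, a form bound by NEUROD1, was in 29.7% of these windows and in 17.2% of all 32851 windows. The E-box CAGCTG was in 21.6% against 16.3%, and the short nuclear factor I site TTGGC in 59.5% against 46.7%. The nuclear factor I palindrome, which holds this site on both strands, was in 0 of the 37 windows and in 0.0365% of all. Windows of 1 gene overlap in sequence, and these shares are descriptions. The *Il16* window printed above holds 3 matches to CAGATG, and the *Fat2* window 0 matches to any of these motifs.

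The transcription factors had a median of -0.23, with 8 of 9 below 0 and 3 lower at an unadjusted p under 0.05. With *Snx14*-KO cerebellum 2 alone the median was -0.0045, 5 of 9 were below 0 and 0 were lower at that level, and without it the median was -0.39 and 8 were. *Neurod1*, required for granule cells to survive their birth, was at 308, 294 and 244 CPM in WT and at 178, 299 and 229 in *Snx14*-KO cerebella (-0.26), and 13.0% of its exon bases are shared with other genes. *Neurod2*, a relative that acts later, was at 115, 110 and 111 CPM in WT and at 83.9, 106 and 70.1 in *Snx14*-KO cerebella. The groups did not overlap for *Neurod2*, and its log2 fold change was -0.37 (standard error 0.129), or -0.09 with *Snx14*-KO cerebellum 2 alone and -0.55 without it. *Pax6*, the paired-domain factor of the rhombic lip lineage, was at 67.4, 65.0 and 64.2 CPM in WT and at 48.2, 62.2 and 45.8 in *Snx14*-KO cerebella. Its groups did not overlap either, and the log2 fold change was -0.33 (standard error 0.110). *Etv1*, an ETS factor of maturing granule cells, was at 338, 337 and 290 CPM in WT and at 204, 311 and 261 in *Snx14*-KO cerebella (-0.31, standard error 0.137). *Snx14*-KO cerebellum 2 lay within the WT range of *Etv1*, as it did for *Neurod1*. With it alone, *Neurod1*, *Pax6* and *Etv1* were at 0.08, -0.08 and -0.05, and without it at -0.48, -0.49 and -0.47.

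The zinc finger factors of the Zic family, which keep granule cells in their lineage, overlapped between the groups. *Zic1* was at 774, 749 and 662 CPM in WT and at 520, 752 and 593 in *Snx14*-KO cerebella (-0.23). *Zic2* was at 199.9, 191 and 173 CPM in WT and at 153, 189 and 158 in *Snx14*-KO cerebella (-0.18). *Zic4*, which lies beside *Zic1* on chromosome 9 and shares exon bases with it, was at 106, 112 and 104 CPM in WT and at 92.1, 113 and 98.5 in *Snx14*-KO cerebella (-0.08). In all 3 genes, *Snx14*-KO cerebella 1 and 3 were below the WT libraries and *Snx14*-KO cerebellum 2 was not. *Nfix*, a nuclear factor I protein of maturing neurons, was at 278, 240.1 and 274 CPM in WT and at 236, 264 and 221 in *Snx14*-KO cerebella (-0.14). *Barhl1*, a homeobox factor of early granule cells, ran the other way, with 10.8, 8.20 and 8.55 CPM in WT and 11.7, 9.18 and 12.9 in *Snx14*-KO cerebella (0.29, standard error 0.170). Its 95% interval of -0.09 to 0.68 includes 0. *Zic1*, *Zic2*, *Zic4*, *Nfix* and *Barhl1* were at 0.04, 0.00066, 0.07, -0.0045 and -0.0049 with *Snx14*-KO cerebellum 2 alone, and without it at -0.39, -0.28, -0.18, -0.22 and 0.41.

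The genes of immature neurons were low and did not differ beyond the spread of the libraries. *Mycn*, a driver of progenitor division, was at 6.25, 4.58 and 5.38 CPM in WT and at 5.79, 5.64 and 5.13 in *Snx14*-KO cerebella, with a log2 fold change of 0.03 (95% interval -0.37 to 0.43). *Dcx*, a microtubule protein of migrating neurons, was at 5.85, 6.39 and 8.60 CPM in WT and at 6.69, 7.96 and 7.66 in *Snx14*-KO cerebella, with a log2 fold change of 0.10 (95% interval -0.31 to 0.50). *Mycn* and *Dcx* were at 0.05 and 0.19 with *Snx14*-KO cerebellum 2 alone, and without it at 0.01 and 0.04.

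In cerebral cortex, where granule cells of the cerebellum are absent, the same genes showed no common direction. Of 28 genes tested, 17 were higher and 11 lower in *Snx14*-KO cortices, with a median of 0.03, and 0 were called, where 0.00548% of all 18255 genes were. At an unadjusted p under 0.05, 1 was higher, *Zic1*, and 0 were lower, where 2.24% of all genes were higher and 2.26% lower. The log2 fold changes ran from -0.70 for *Cbln3*, with at most 62 counts in a library, to 0.64 for *Zic4*. *Zic1* was at 11.4, 7.02 and 8.30 CPM in WT and at 11.3, 15.9 and 11.5 in *Snx14*-KO cortices. *Zic2* was at 9.89, 7.18 and 6.18 CPM in WT and at 9.31, 12.5 and 8.79 in *Snx14*-KO cortices. *Zic4* was at 2.49, 2.61 and 2.88 CPM in WT and at 2.69, 6.24 and 3.40 in *Snx14*-KO cortices. All 3 genes were highest in *Snx14*-KO cortex 2. Their log2 fold changes were 0.54 (adjusted p = 0.996 by the quasi-likelihood test), 0.40 and 0.64, and 0.36, 0.22 and 0.20 without that library. It is also the library with the highest score of 16 meningeal fibroblast genes (0.95, against -0.42 to 0.01 in the other cortices), a cell type in which Zic genes are expressed, and the part of those cells was not tested. *Grm4* was at 25.5 to 27.1 CPM in WT and 20.9 to 25.1 in *Snx14*-KO cortices (-0.18) and *Svop* at 175 to 183 and 183.3 to 199 (0.10). *Slc17a7* overlapped between the groups (0.13).

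**Figure D3:**
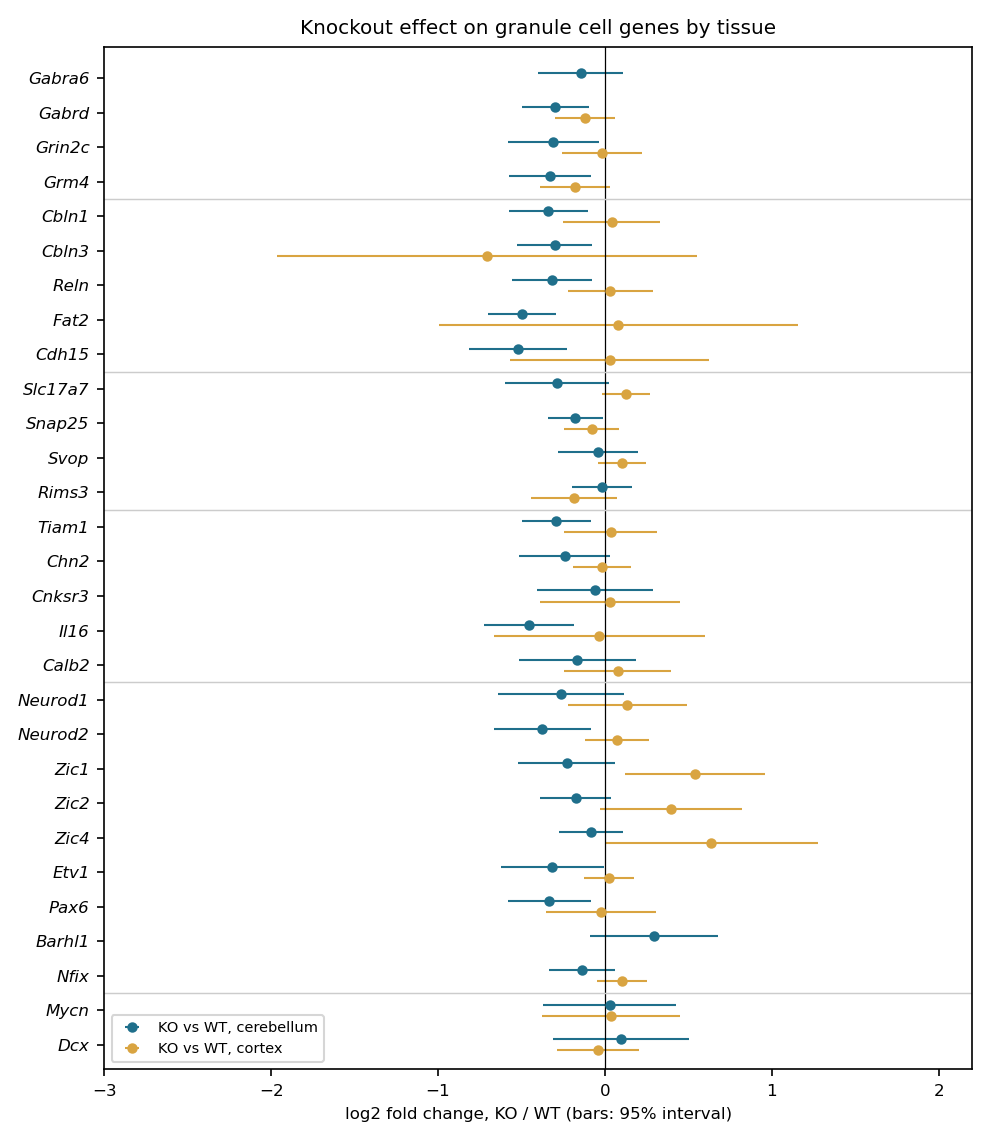
Log2 fold change of *Snx14*-KO against WT with its 95% interval for the 29 genes tested in cerebellum (blue) and, where tested, in cortex (yellow), grouped by role. Most cerebellar values lie left of 0, with *Fat2* at -0.50 and *Cdh15* at -0.52, while most cortical values lie around 0 and *Zic1*, *Zic2* and *Zic4* lie right of it.

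A model of all 12 libraries with a genotype by tissue term asked whether the genotype effect was unlike in cerebellum and cortex. Of 29 genes tested, 24 had a lower log2 fold change in cerebellum than in cortex, with a median difference of -0.31, and 0 were called at an adjusted p under 0.05, as for 0.00% of all 19380 genes. At an unadjusted p under 0.05, 8 were lower and 1 higher, where 1.71% of all genes were lower and 3.97% higher. The gene higher was *Barhl1*, which had 0 counts in all 3 *Snx14*-KO cortices, so its difference has no finite estimate. The genes lower were *Zic1*, with a difference of -0.78 (standard error 0.245, adjusted p = 0.526 by the quasi-likelihood test), *Zic4* (-0.74), *Zic2* (-0.59), *Cdh15* (-0.56), *Neurod2* (-0.46), *Slc17a7* (-0.43), *Cbln1* (-0.39) and *Nfix* (-0.25). For *Zic1*, the log2 fold change was -0.23 in cerebellum and 0.54 in cortex. Without *Snx14*-KO cortex 2, in which the Zic genes were highest, the differences of *Zic1*, *Zic4* and *Zic2* were -0.60, -0.30 and -0.41. The count of genes lower at an unadjusted p under 0.05 was 4 without that library, and also without WT cerebellum 1, *Snx14*-KO cerebellum 3 or WT cortex 2. For these fits the share of all genes at that level was not counted. The labels number both tissues of a mouse alike, and with the mouse as a block 13 genes were lower at an unadjusted p under 0.05, against 1.89% of all genes. With *Snx14*-KO cerebellum 2 as the lone *Snx14*-KO cerebellum the count was 0, against 1.61% of all genes, and the median difference -0.09. Without it the count was 14, against 2.17% of all genes, and the median -0.43. *Neurod2* was then called (-0.63), and 0.0303% of all genes were called lower. *Fat2*, with 8 to 29 counts in WT cortices, had a difference of -0.59 with a wide interval (-1.51 to 0.33).

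Some cerebellar transcripts were found in cortex libraries in traces, in genes picked after their values were seen. *Gabra6* had 38, 10 and 3 counts in WT cortices 1, 2 and 3 and 13, 1 and 8 in *Snx14*-KO cortices. *Cbln3* had 62, 25 and 10 counts in WT and 28, 9 and 17 in *Snx14*-KO cortices, and *Barhl1* had 11, 1 and 0 in WT. WT cortex 1 held the most of these 3, at 0.303% of the level in WT cerebella for *Gabra6*, 0.359% for *Cbln3* and 6.18% for *Barhl1*. *Fat2* was at 0.409% in WT cortex 1 and at 0.335% in *Snx14*-KO cortex 2. In *Snx14*-KO cortex 2, *Gabra6* was at 0.00825% and *Cbln3* at 0.0538%. *Cbln1* was highest in WT cortex 3, at 2.21% of the cerebellar level against 2.10% in WT cortex 1, and *Zic1* in *Snx14*-KO cortex 2, at 2.23% against 1.59%.

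Other genes of the granule cell lineage, in lists apart from the 31, did not share one direction in *Snx14*-KO cerebella. The 15 further channel and receptor genes had a median of -0.02, with 8 lower, and 1 was lower at an unadjusted p under 0.05, *Cacng2* (-0.25, or -0.15 with *Snx14*-KO cerebellum 2 alone and -0.30 without it), which encodes the AMPA receptor partner stargazin. The 12 further lineage and nuclear genes had a median of -0.11, with 9 lower, and at an unadjusted p under 0.05 there was 1 lower and 1 higher. The smallest p belonged to *En2*, a homeobox factor of the cerebellum, at 127, 124 and 127 CPM in WT and 97.0, 110.5 and 83.3 in *Snx14*-KO cerebella (-0.38, adjusted p = 0.304 by the quasi-likelihood test). The log2 fold change of *En2* was -0.19 with *Snx14*-KO cerebellum 2 alone and -0.49 without it. The 10 migration and axon genes had a median of 0.01, with 4 lower, and *Cntn2*, an adhesion protein of parallel fibers, was at -0.25, or at -0.22 with *Snx14*-KO cerebellum 2 alone and -0.28 without it. In the Sonic hedgehog and progenitor cycle list, 10 of 11 genes had log2 fold changes above 0 (median 0.24). Of these, 2 were higher at an unadjusted p under 0.05, and for 2 the *Snx14*-KO libraries were all above the WT libraries, as for 5.78% and 6.99% of all genes. Its gene with the smallest p was *Top2a*, a topoisomerase of dividing cells, which was low, with 0.918, 1.75 and 0.566 CPM in WT and 1.80, 2.27 and 5.65 in *Snx14*-KO cerebella (1.59, or 1.07 with *Snx14*-KO cerebellum 2 alone and 1.78 without it). None of these genes (0) was called by the quasi-likelihood test or by DESeq2. The medians of these 4 lists were -0.03, 0.0060, -0.03 and 0.19 with *Snx14*-KO cerebellum 2 alone, and without it 0.01, -0.21, -0.0049 and 0.25.

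No gene of the lists for other cell types (0) was called by the quasi-likelihood test. Meningeal fibroblast genes were higher in *Snx14*-KO cerebella in 16 of 16 cases (median 1.15), their summed level was 547 to 562 CPM against 210 to 398 in WT, and for 13 the groups did not overlap, as for 6.99% of all genes. At an unadjusted p under 0.05, 13 of the 16 were higher, where 5.78% of all genes were, and DESeq2 called 11 higher, where it called 0.841% of all genes. *Col1a2*, a collagen gene, had the smallest p of the list (0.95, adjusted p = 0.0634 by the quasi-likelihood test), and the median was 0.92 with *Snx14*-KO cerebellum 2 alone and 1.11 without it. The 14 genes of microglia and macrophages all had log2 fold changes above 0, with a median of 0.81, and 9 were higher at an unadjusted p under 0.05. The smallest p was that of the lysosomal gene *Cd68*, at 2.58, 4.22 and 2.26 CPM in WT and 5.44, 6.63 and 29.6 in *Snx14*-KO cerebella, with a log2 fold change of 1.13 with *Snx14*-KO cerebellum 2 alone and 2.53 without it. The list's summed level was 318 to 831 against 273 to 345 CPM, the groups overlapped for 13 of the 14, and the median was 0.24 without *Snx14*-KO cerebellum 3, 0.34 with *Snx14*-KO cerebellum 2 alone and 1.00 without that library. Of 12 Bergmann glia and astrocyte genes, 9 were higher, 6 of them at an unadjusted p under 0.05 and 5 without overlap of the groups (median 0.25, or 0.19 with *Snx14*-KO cerebellum 2 alone and 0.24 without it, summed level 7875 to 9242 against 6945 to 7600.5 CPM). Glutamine synthetase, *Glul*, had the smallest p of these (0.32). The 10 forebrain excitatory neuron genes summed to 410.4, 225 and 394 CPM in *Snx14*-KO cerebella 1, 2 and 3, to 210.2 to 229 in WT cerebella and to 5536 to 6138 in WT cortices, and *Nrgn* had the smallest p of the 6 tested (4.33, or 1.15 with *Snx14*-KO cerebellum 2 alone and 4.86 without it). The median of these 6 was 0.11, with 4 higher and 2 lower. It was 0.20 with *Snx14*-KO cerebellum 2 alone and 0.08 without that library. DESeq2 called 1 of the 6 higher. The 6 genes of unipolar brush cells (median -0.17) and the 10 of oligodendrocytes (median -0.16) all had log2 fold changes below 0, and 1 and 0 of them were lower at an unadjusted p under 0.05. In that order of the lists, the smallest p belonged to *Plcb4* (-0.18) and *Ermn* (-0.16). These medians were -0.01 and -0.06 with *Snx14*-KO cerebellum 2 alone, and without it -0.52 and -0.18. For Purkinje cells the median was -0.06 and 12 of 15 genes were lower, and it was 0.02 with *Snx14*-KO cerebellum 2 alone and -0.19 without it. The smallest p of the Purkinje cell list was that of *Foxp2*, which was at 11.9, 13.4 and 8.83 CPM in WT and at 26.1, 13.6 and 28.2 in *Snx14*-KO cerebella (0.99), and which forebrain neurons also express. DESeq2 called 1 gene of the Purkinje cell list higher. *Foxp2* was at 0.25 with *Snx14*-KO cerebellum 2 alone and 1.25 without it. The 10 interneuron and Golgi cell genes had a median of -0.03, or -0.17 with *Snx14*-KO cerebellum 2 alone and -0.01 without it, and *Sst* (3.34, or 0.40 with *Snx14*-KO cerebellum 2 alone and 3.85 without it) had the smallest p. DESeq2 called 1 of them higher. The 10 endothelial and mural cell genes had a median of 0.20, or 0.23 with *Snx14*-KO cerebellum 2 alone and 0.09 without it, with 3 higher at an unadjusted p under 0.05 and the smallest p in *Vtn* (0.66). DESeq2 called 1 of these higher. The 8 choroid plexus genes had a median of -0.71 but summed to 85.5, 2863 and 7829 CPM in WT cerebella 1, 2 and 3, and without WT cerebellum 3 the median was 0.52. It was -0.24 with *Snx14*-KO cerebellum 2 alone and -1.04 without it, and *Clic6* (-0.81) had the smallest p. Of 10 brainstem and midbrain neuron genes, 2 were tested (median 0.26, or 0.54 with *Snx14*-KO cerebellum 2 alone and 0.08 without it, summed level of at most 16.7 CPM), and *Th* (0.24) had the smaller p. The 10 housekeeping genes had a median of 0.04, or 0.03 in both of these settings, and *Gapdh* (0.10) had the smallest p. The part of these cell types in the lower granule cell genes was not tested.

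**Figure D4:**
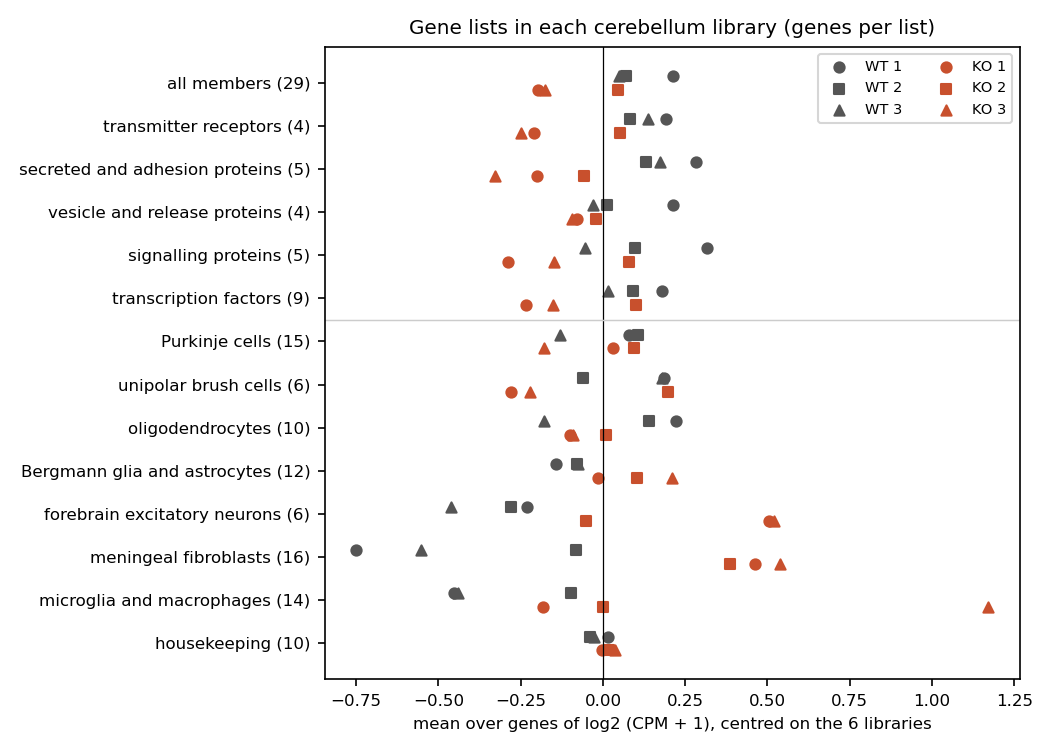
List scores in the 6 cerebella, each the mean over the genes of a list of the log2 of CPM plus 1, centred on the 6 libraries; the number of genes is in parentheses, grey is WT, orange is *Snx14*-KO, and symbols mark mice 1, 2 and 3. The 29 granule cell genes scored 0.05 to 0.21 in WT and -0.20, 0.04 and -0.18 in *Snx14*-KO cerebella, while the forebrain list was highest in *Snx14*-KO cerebella 1 and 3 (0.50 and 0.52).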

How the data were processed

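The 12 libraries came from 3 mice of each genotype, with cerebellum and cortex from each mouse. Total RNA was extracted with TRIzol. Reads were trimmed and aligned by STAR to GRCm38, and featureCounts (Subread 2.0.1) gave read pairs per gene, which the authors deposited as raw counts. The counting ignored strand, left out reads with several positions and gave a pair to each gene under it, so overlapping genes share read pairs. The submitters' processing notes also name DESeq2 1.38.3. Features other than the 55536 genes were left out, and they took at most 0.0632% of the counts of a library.

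Groups were compared in R 4.3.3 with edgeR 4.0.16 (TMM, filterByExpr, quasi-likelihood test, Benjamini-Hochberg adjustment over all genes tested), which was tested on simulated data, and DESeq2 1.42.0 was an alternative. A call is an adjusted p under 0.05 with an absolute log2 fold change over 0.50, and for the interaction an adjusted p under 0.05. Values with ± are mean and SD of TMM-normalised CPM, scaled within the libraries of a comparison. Standard errors belong to the fitted fold changes on the log2 scale. The alternatives were DESeq2, its size factors, total counts, no filter on low counts, a replicate block and each library left out in turn. Whether same-numbered libraries deviate together was checked over 19380 genes. In WT mice, both tissues of a mouse correlated at 0.111, 0.159 and 0.0731, and each library correlated best with its own number. In *Snx14*-KO mice the correlations were 0.338, 0.0178 and 0.102, and 1 of 3 libraries did. The pairing of tissues rests on the mouse numbers of the labels. *Snx14*-KO and WT mice share only a number.

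The genes, roles and lists were chosen with earlier results of these data known. All 31 genes are reported, and of other genes the one with the smallest p of each list and *Snx14*. No 2 libraries of a group were identical, and their chi-square per gene was at least 6.00. The labels number separate mice. Groups of 3 mice limit the precision, and the totals per library set the counting error.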

Additional observations from a re-analysis of the deposited data

How the results depend on the processing

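The tissue contrast kept 21 genes called higher and 5 or 6 called lower under each library left out. With total counts alone its median was 3.08 and *Nfix* was at 0.045. In *Snx14*-KO against WT cerebella, DESeq2 called 153 of all genes higher and 11 lower and 2 granule cell genes lower, no filter on low counts gave 329, 18 and 2, and total counts alone gave 1 higher. With *Snx14*-KO cerebellum 2 alone, an alternative added after the data were seen, 2 granule cell genes were lower at an unadjusted p under 0.05 and the median was -0.060, and 7 genes changed sign, namely *Gabra6* (0.016), *Cnksr3* (0.077), *Neurod1* (0.077), *Zic1* (0.040), *Zic2* (0.00066), *Zic4* (0.073) and *Barhl1* (-0.0049). With each library left out, 0 to 244 of all genes were called higher and 1 to 10 lower, 0 to 3 granule cell genes were called lower, 7 to 21 were lower at an unadjusted p under 0.05, and the median was -0.38 to -0.15, and by role it was -0.38 to -0.15 for signalling proteins and -0.39 to -0.12 for transcription factors, in both with *Snx14*-KO cerebellum 2 left out at the lower end and *Snx14*-KO cerebellum 1 at the upper. The log2 fold changes that changed sign there ran over these ranges: *Calb2* -0.29 to 0.0084, *Cnksr3* -0.24 to 0.073, *Dcx* -0.015 to 0.27, *Mycn* -0.077 to 0.15, *Rims3* -0.070 to 0.052, *Svop* -0.13 to 0.060.

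In cortex, DESeq2 called 3 of all genes higher and 6 lower, and no filter gave 85 and 64, with 2 granule cell genes lower at an unadjusted p under 0.05. With each library left out, 1 to 2 of all genes were called lower, 0 to 1 granule cell genes were lower at an unadjusted p under 0.05, and 7 to 16 were below 0. Of the 28 genes in cortex, 19 changed sign with some library left out, over these ranges: *Calb2* -0.014 to 0.19, *Cbln1* -0.068 to 0.13, *Cbln3* -1.23 to 0.16, *Cdh15* -0.060 to 0.15, *Chn2* -0.087 to 0.039, *Cnksr3* -0.11 to 0.18, *Dcx* -0.12 to 0.092, *Etv1* -0.011 to 0.070, *Fat2* -0.22 to 0.76, *Grin2c* -0.084 to 0.10, *Il16* -0.35 to 0.21, *Mycn* -0.14 to 0.24, *Neurod1* -0.011 to 0.33, *Nhlh1* -0.97 to 0.13, *Pax6* -0.11 to 0.045, *Reln* -0.091 to 0.14, *Rims3* -0.29 to 0.000765, *Snap25* -0.13 to 0.0013, *Tiam1* -0.12 to 0.16.

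For the difference between tissues, DESeq2 called 39 of all genes higher and 1 lower. No filter gave 373 and 45, with 1 granule cell gene called higher, 5 called lower and 15 lower at an unadjusted p under 0.05. The replicate block gave 13, and it changed no call of a granule cell gene in any comparison. With *Snx14*-KO cerebellum 2 alone the count was 0 and the median -0.090, and *Grm4* (0.024), *Cnksr3* (0.037) and *Mycn* (0.0091) changed sign. With each library left out, 0 to 251 of all genes were called higher and 0 to 6 lower, 0 to 1 granule cell genes were called lower, 4 to 14 were lower at an unadjusted p under 0.05, and the median was -0.43 to -0.20. Signs changed for *Cbln3* -0.44 to 0.92, *Cnksr3* -0.28 to 0.038, *Gabra6* -0.42 to 1.68, *Mycn* -0.20 to 0.15, *Rims3* -0.033 to 0.26. The causes of these changes were not tested. With a library left out, the share of all genes at an unadjusted p under 0.05 was counted only for *Snx14*-KO cerebellum 2. Groups of 3 libraries and, in cortex, counts under 100 in every library for *Gabra6*, *Cbln3*, *Fat2*, *Cdh15*, *Il16*, *Barhl1* and *Nhlh1* limit what can be seen.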
